A study of Mus musculus with 12 samples.

Results

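The tumours of line 24, labelled as a Mif knockout (KO), were compared with those of line 18, labelled as its control, inside a single 10x library that held both. Cells were barcodes of the second mixed library with at least 300 genes, at most 15% mitochondrial UMIs and a top hashtag of at least 20 counts and at least 3 times the second. UMIs are unique molecular identifiers, which count RNA molecules. These rules kept 14071 cells of 116375 in the whole series. Line 24 gave 9252 cells from 3 tumours, taken on day 6 (2411 cells), day 10 (3279) and day 16 (3562). Line 18 gave 4819 cells from 2 tumours, taken on day 6 (1895) and day 10 (2924). The hashtag sheet names no day 16 tumour of line 18 in this library, so the lines could be paired on 2 days. The sheet lists 8 hashtags for this library, and 23100 cells were called over all of them. Cells of hashtags outside lines 24 and 18 did not enter the comparison.

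The series studied the rejection of melanoma over time, and its mouse lines carry the name SCC35. Tumours were dissociated, marked with hashtag antibodies, sorted for live cells and profiled with a 5′ single-cell kit. The labels give no host strain, sex or age, and do not say whether a hashtag stands for 1 animal or whether a line is 1 clone. With 1 KO line against 1 control line, the effect of the knockout and any other difference between the lines cannot be told apart. The p-values cover only the spread between tumours. In the fits of this library with a day term that spread comes from the 4 tumours of days 6 and 10, with 1 residual degree of freedom. The edgeR test there relies largely on a spread shared across genes, so a small p-value does not measure the gene's own spread.

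Mif is the gene of macrophage migration inhibitory factor, a cytokine that many cell types release and that signals through Cd74 with Cd44 and through chemokine receptors. Many tumour cells make it in quantity, and it has been studied for its action on macrophages and T cells in tumours. Interferons, which T and NK cells among others release, induce antigen presentation genes and chemokines in the cells that receive them. The Mif gene lies at chr10:75859353-75860277 in GRCm38.p6.

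The hashtag barcodes are shown because each tumour is defined by 1 of them. Capitals mark the whole barcode.
Line 24, day 6: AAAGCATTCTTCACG
Line 24, day 10: CTTTGTCTTTGTGAG
Line 24, day 16: TATGCTGCCACGGTA
Line 18, day 6: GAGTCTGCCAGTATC
Line 18, day 10: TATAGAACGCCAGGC

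The tumours differed in depth and in hashtag counts. Median UMIs per cell were 3010, 4062 and 3901 in line 24 (days 6, 10 and 16, the order used throughout) and 10692 and 6091 in line 18 (days 6 and 10). Total UMIs ran from 11836947 in the day 6 tumour of line 24 to 21422563 in the day 10 tumour of line 18. The median top hashtag count was 906, 1220 and 889 in line 24 against 287 and 349 in line 18, while the second hashtag stood at 12 to 14 counts in all 5. Of the barcodes called in this library, 1.52% to 3.07% were also called in each other library.

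Cells were split by a gate, immune where Ptprc and Tyrobp together had at least 2 UMIs and other below that. The gate did not part the cells cleanly. Of 4586 immune-gated cells, 1190 (25.9%) fell in unnamed clusters with median UMIs of 8774 to 9764, and 1013 T cell-like and 473 macrophage/monocyte-like cells lay among the 9485 other cells. A line compartment was therefore drawn after seeing the data, from the 9 unnamed clusters of other cells with Ptprc in under 10% of cells. It held 7324 cells: 1113, 1589 and 1681 of line 24 and 1369 and 1572 of line 18. Melanocytic markers did not define it. Mlana, Tyr, Tyrp1 and Dct were at 0, and the 7 markers summed to 10.7, 11.9 and 14.8 UMIs per 1000000 in line 24 and 11.8 and 19.4 in line 18.

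Mif was lower in cells of line 24 than in those of line 18 on both days. Levels are given as CPM, the UMIs of a gene per 1000000 UMIs of the same sum. In the line compartment Mif stood at 1040, 1085 and 1027 CPM in line 24 (mean 1051 ± 30.4, SD, n = 3). It stood at 1845 and 2103 CPM in line 18. All 3 tumours of line 24 lay below both of line 18. Mif fell by 0.88 on the log2 scale (SE 0.123, edgeR quasi-likelihood test with Benjamini-Hochberg adjusted p = 0.00459). In all other cells, before the line compartment was drawn, the values were 1100, 1186 and 1091 against 1814 and 2036 CPM and the log2 difference was -0.74 (SE 0.125, edgeR adjusted p = 0.0200). In the line compartment 78.1%, 81.1% and 79.1% of line 24 cells held a Mif UMI, against 97.2% and 96.3% of line 18 cells. With each cell thinned to 1000 UMIs the shares were 46.2%, 47.1% and 44.7% against 78.3% and 79.6%. Thinning left out 52, 44 and 56 cells of line 24 and 2 and 25 of line 18. In macrophage/monocyte-like cells the thinned shares were 60.3%, 60.8% and 66.0% against 55.2% and 61.6%.

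The level of Mif in line 24 varied with the clarity of the hashtag call. Line 24 cells whose top hashtag was 3 to 6 times the second had 1704 Mif CPM (504 cells), and those at 6 to 20 times had 1494 (765 cells). The level was 957.9 CPM at 20 to 50 times (884 cells) and 598 at 50 times and over (2230 cells). Line 18 went from 2046 to 1781 CPM over the same ranges, in 828 and 184 cells. Tspan6, a tetraspanin gene lower in line 24, went from 14.7 to 3.05 CPM in line 24 and from 31.6 to 25.6 in line 18. Csf2 and S100a16, both higher in line 24, went the other way in line 24, from 12.4 to 38.3 and from 52.1 to 133.7 CPM. Median UMIs per cell went from 8788 to 5189.5 along these ranges in line 24, and the part of depth in these levels was not tested. Towards low ratios the levels of these genes in line 24 lay nearer to those of line 18. Whether cells of line 18, of the library's other hashtags or doublets stand among the line 24 calls at low ratios was not tested.

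A limit of at least 20 on the ratio of the top to the second hashtag was chosen after seeing the data. In the line compartment it kept 67.8%, 73.2% and 71.2% of the line 24 cells and 38.7% and 17.7% of the line 18 cells. Mif was then 682, 752 and 661 CPM in line 24 against 1817 and 2019 in line 18. The difference was -1.37 on the log2 scale (SE 0.145, edgeR adjusted p = 0.000716).

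Mif differed little between lines in immune cells. In immune-gated cells it stood at 1523, 1451 and 1584 against 1659 and 1496 CPM, with a log2 difference of -0.09 (SE 0.136, edgeR adjusted p = 0.790). In the named immune clusters alone the values were 1045, 1005 and 1221 against 1257 and 1141. In macrophage/monocyte-like cells they were 1004, 1177 and 1306 against 973 and 1009 CPM (0.26, SE 0.287, edgeR adjusted p = 0.778). The lines overlapped in all 3 of these groups. In T cell-like cells Mif stood at 1177, 931 and 1184 against 585 and 957 CPM (0.575, SE 0.359, edgeR adjusted p = 0.474). There the thinned shares were 68.4%, 59.3% and 59.0% against 42.9% and 45.0%, on 14 and 20 cells of line 18. The difference of the effects was itself past the threshold: other minus immune cells gave -0.67 (edgeR adjusted p = 0.00727), where 7.6% of 13019 genes passed. Without the day 10 tumours it was -0.62 and missed the threshold (edgeR adjusted p = 0.0501). The line compartment against the named immune clusters gave -0.88 (edgeR adjusted p = 0.00506), where 6.85% of 12684 genes passed.

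Further tumours of the same lines, in libraries of 1 line each, gave lower levels of Mif in line 24. Mif in other cells ran from 381 to 497 CPM over 5 tumours of line 24 (mean 440.6 ± 45.0, SD) and from 1835 to 2274 over 6 tumours of line 18 (mean 2124 ± 165, SD). The log2 difference was -2.30 (SE 0.060, edgeR adjusted p = 3.6e-10), where 56.7% of 12706 genes passed and where line and library cannot be told apart. In other cells of the first mixed library, which holds KO line 19 and control line 15, Mif stood at 392.3 ± 50.6 and 1852 ± 153 CPM (SD, n = 3 each). That is a log2 difference of -2.20. The line 24 effect exceeded the line 19 effect by 1.41 on the log2 scale, which is a smaller fall (SE 0.108, edgeR adjusted p = 0.00172). In that comparison of effects 8.67% of 13721 genes passed. With the hashtag ratio of at least 20 in both libraries, the effects on Mif were -1.16 for line 24 and -2.37 for line 19, and they differed by 1.22 (SE 0.160, edgeR adjusted p = 0.0157).

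**Figure D1:**
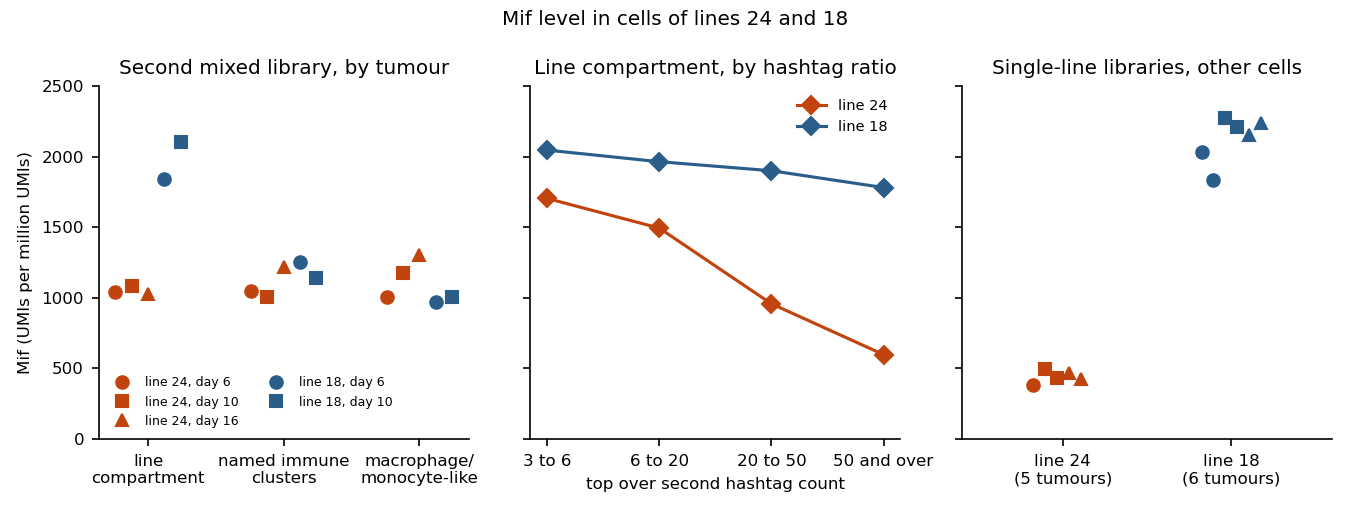
Mif in CPM, its UMIs per 1000000 UMIs. Left, each point is 1 tumour of the second mixed library in 3 cell groups. Middle, cells of the line compartment pooled by line and by the ratio of the top to the second hashtag count. Right, each point is 1 tumour of a single-line library. Line 24 lies below line 18 in the line compartment (1027 to 1085 against 1845 and 2103).

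Of the other genes of the Mif axis in the line compartment, Cd74, the invariant chain and a Mif receptor, stood at 87.6, 81.7 and 283 against 24.9 and 35.9 CPM and rose in line 24 (1.51, SE 0.157, edgeR adjusted p = 0.00135). Ddt, the homologue of Mif, stood at 67.4, 73.7 and 63.5 against 69.2 and 72.3 CPM (0.01, SE 0.111). Cd44, which signals with Cd74, stood at 321, 307 and 359 against 387 and 362 CPM (-0.24, SE 0.110, edgeR adjusted p = 0.225). Cxcr4 and Ackr3, chemokine receptors tied to Mif, did not pass either.

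Across the line compartment 12279 genes were tested and 1183 passed (9.63%), 881 of them higher in line 24 (7.17%) and 302 lower (2.46%). Leaving out 1 tumour at a time, without the day term, gave 569 calls without line 24 day 16, 765 without line 24 day 10 and 3021 without line 18 day 10. In all other cells 1149 of 13189 genes passed (8.71%), and 817 genes passed in both, which is 71.1% of the calls in other cells and 69.1% of those in the line compartment. The 10 largest rises of the wider gate held T-cell genes. Hcst, an adaptor of T and NK cells, stood at 15.3, 44.2 and 26.5 against 0.961 and 2.15 CPM there, and Pdcd1, Itgal and Cd3g were also among them. T-cell markers in that gate summed to 94.3, 233 and 210.3 against 10.4 and 20.1 CPM, and the results below come from the line compartment.

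In the line compartment T-cell markers summed to 13.5, 18.7 and 13.9 against 4.20 and 7.82 CPM, and macrophage markers to 89.2, 100 and 80.1 against 39.2 and 70.4. Fibroblast markers summed to 257, 443 and 291 against 54.7 and 248, and endothelial markers to 63.3, 61.5 and 70.8 against 16.6 and 21.4. Col3a1, a fibroblast marker and a called gene given below, made up most of each fibroblast sum. Plasmacytoid dendritic cell markers, of which Bst2 is also an interferon gene, summed to 1355, 854 and 1142 against 306 and 564. All 3 tumours of line 24 were above both of line 18 in these 5 sums. The part of RNA from such cells in the gene groups below was not tested.

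The 10 largest rises in line 24 are given first. Mmp3, which encodes the protease stromelysin-1, stood at 62.8, 77.2 and 30.5 against 0.504 and 0.941 CPM (6.63, SE 0.213, edgeR adjusted p = 1.29e-05). Csf2, the myeloid growth factor GM-CSF, stood at 23.0, 17.3 and 45.4 against 0.280 and 1.01 CPM (5.03, SE 0.376, edgeR adjusted p = 0.000295). Sparcl1, a matrix glycoprotein, stood at 62, 120.3 and 93.1 against 2.35 and 5.58 CPM (4.57, SE 0.150). The groups were separate for each of these genes, and the lowest tumour of line 24 was far above line 18. Cxcl12, the chemokine ligand of Cxcr4, stood at 31.8, 55.2 and 37.8 against 1.18 and 3.77 CPM (4.24, SE 0.227). Il17rd, an inhibitor of fibroblast growth factor signalling, stood at 10.1, 17.6 and 11.8 against 0.392 and 0.579 (4.80, SE 0.267). Aqp4, a water channel, stood at 19.6, 45.5 and 63.8 against 0.448 and 1.59 (5.05, SE 0.218). The remaining genes of the 10 largest rises were Ralgps2, Ppp1r14a and the proteoglycan gene Prelp, with log2 differences of 4.94, 4.53 and 4.44, and Cytl1. Cytl1 had 1 and 0 counts in line 18 and stood at 0.397, 7.67 and 19.2 CPM in line 24.

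The falls were smaller in size in this library. Tspan6 stood at 6.49, 9.04 and 7.59 against 25.6 and 34.6 CPM (-1.94, SE 0.157, edgeR adjusted p = 0.000413). Tex13b stood at 7.02, 6.82 and 7.95 against 38.7 and 28.8 (-2.25, SE 0.173). Tfpi, the inhibitor of the tissue factor pathway of coagulation, stood at 5.16, 4.52 and 3.80 against 16.5 and 16.9 (-1.78, SE 0.186). In none of these genes did the lines overlap. Slc2a5, a fructose transporter, stood at 5.03, 4.86 and 4.86 against 19.4 and 16.7 (-1.85, SE 0.182). The other 6 of the 10 largest falls were Gm47223, Gad2, Cnfn, Tmem37, Srpx2 and Myoz2, with log2 differences from -2.10 to -1.79. With the limit of 20 on the hashtag ratio, Tmem37 alone of these 21 genes missed the threshold (-1.86, edgeR adjusted p = 0.0505). There Tspan6 differed by -2.82, Tex13b by -2.89 and Mmp3 by 8.12. DESeq2 lost the call of 5 of the 21, namely Cytl1, Gad2, Tmem37, Srpx2 and Myoz2.

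**Figure D2:**
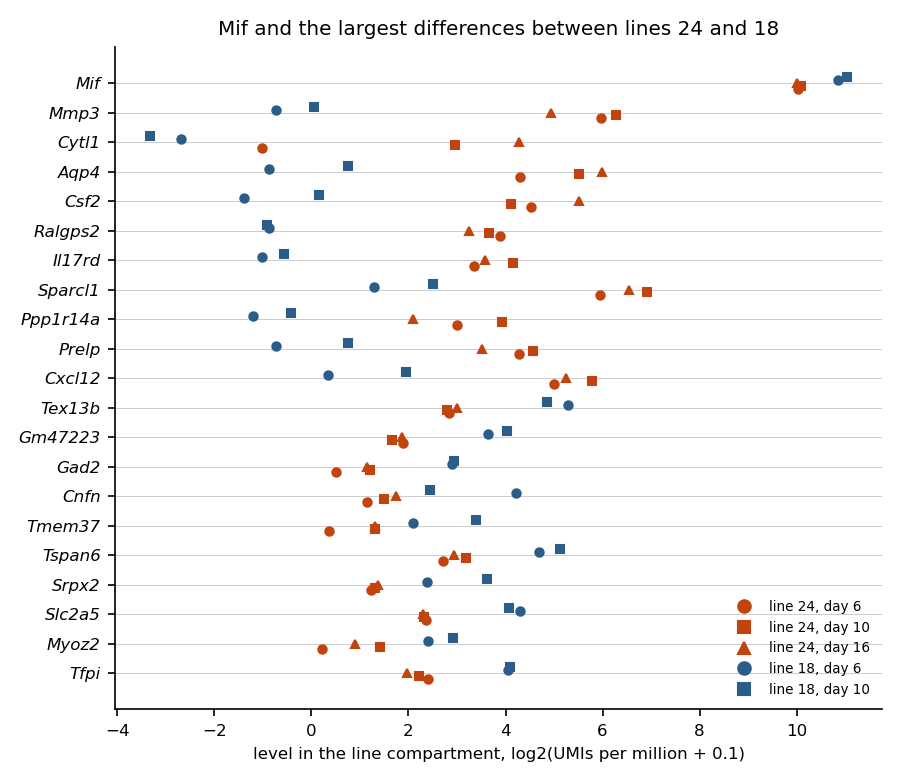
Levels of Mif and of the 10 largest rises and 10 largest falls in the line compartment, each point 1 tumour, on a log2 axis of CPM plus 0.1. Line 24 lies to the right of line 18 for the rises and to the left for Mif and the falls, with no overlap in the 21 rows.

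The single-line libraries hold other tumours of both lines. No line compartment was drawn there, so values from them are for other cells, the wider gate. Of the 1183 genes called in the line compartment, 1172 were tested there and 1161 (99.1%) had the same sign, against 78.1% of all 12137 genes tested in both. There, 1114 of them (95.1%) were called with the same sign, which is 15.5% of the 7199 genes called in the single-line libraries. Tspan6 ran from 1.19 to 3.13 CPM in line 24 and from 25.6 to 37.9 in line 18 there. Mmp3 ran from 89.8 to 145 CPM in line 24 and from 1.96 to 23.6 in line 18. Tex13b ran from 0 to 0.0540 CPM in line 24 and from 25.45 to 33.8 in line 18. Among the genes named above, the largest falls there were Tex13b (-9.88 on the log2 scale) and Cnfn (-8.17). The largest rises were Cytl1 (8.83) and Aqp4 (8.19).

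In other cells of the first mixed library, line 19 over line 15 gave a Tspan6 difference of -2.15 (edgeR adjusted p = 0.00109) and a Mmp3 difference of -1.86 (edgeR adjusted p = 0.0110). The sign for Mmp3 was opposite to that of line 24 over line 18. In the same fit, which used other cells of both mixed libraries, line 24 over line 18 gave 2.93 for Mmp3 and -1.82 for Tspan6. The difference between the effects was past the threshold for Mmp3 (4.79, SE 0.426, edgeR adjusted p = 0.00290) and not for Tspan6 (0.33, SE 0.246, edgeR adjusted p = 0.419).

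MHC class I presentation genes rose in line 24. Of 11 genes tested in the line compartment 10 rose and none fell, where 7.17% of all genes rose, and their median log2 difference was 1.87 against -0.003 over all genes. H2-K1, a class I heavy chain, stood at 1074, 1859 and 2514 against 241 and 633 CPM (1.87, SE 0.164, edgeR adjusted p = 0.000593). B2m, its light chain, stood at 2133, 2704 and 3679 against 908 and 1683 (0.97, SE 0.159). Line 18 was lower on day 6 than on day 10 for both genes, and each line 24 tumour was above it. Psmb9, an immunoproteasome subunit, stood at 87.5, 71.1 and 137 against 6.22 and 14.1 CPM (3.05, SE 0.297). Tap1, which carries peptides into the endoplasmic reticulum, stood at 78.1, 53.5 and 95.6 against 9.97 and 18.0 (2.27, SE 0.282). Erap1, which trims those peptides, missed the threshold (0.70, SE 0.189, edgeR adjusted p = 0.0589). All 11 genes were higher in all 3 tumours of line 24 than in both of line 18, which held for 21.2% of all genes. Reads shared by near-identical class I genes could be split or lost in counting.

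Of the class II genes 4 of 7 tested rose, namely Cd74, H2-Eb1, H2-Ab1 and H2-Aa, with a median of 1.12. With the limit of 20 on the hashtag ratio 2 of 6 tested rose, Cd74 and H2-Ab1. H2-Ab1, a class II chain, stood at 17.7, 17.1 and 37.4 against 7.56 and 8.54 CPM in the line compartment (1.12, SE 0.158). In macrophage/monocyte-like cells it stood at 1935, 5661 and 5880 against 1523 and 1554.

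Interferon response genes were higher too. Of 21 genes 13 rose and none fell, all 21 had a positive difference, and the median was 1.80. Cxcl10, a chemokine that draws T cells bearing Cxcr3, stood at 1207, 468 and 838 against 50.1 and 87.2 CPM (3.51, SE 0.448, edgeR adjusted p = 0.00315). Cxcl9, which binds the same receptor, stood at 60.4, 29.5 and 47.9 against 4.03 and 4.92 (3.27, SE 0.284). Within line 24 the day 10 tumour was the lowest for both chemokines. Irf1, a transcription factor of this response, stood at 287, 197 and 285 against 36.6 and 82.0 (2.12, SE 0.336). Gbp2, Irf7 and Ifit3 missed the threshold at log2 differences of 2.54, 1.55 and 1.78 (edgeR adjusted p = 0.0752, 0.0638 and 0.0631). Of the checkpoint ligands none of 7 passed in edgeR (median 0.37). Cd274, which encodes PD-L1, stood at 27.4, 8.27 and 17.8 against 3.70 and 6.23 CPM (1.70, SE 0.477, edgeR adjusted p = 0.0663). With the limit of 20 on the hashtag ratio, 8 of 11 class I genes and 11 of 21 interferon genes rose, with medians of 1.67 and 1.94, where 5.99% of 11611 genes rose. Of 5 checkpoint ligands tested there 1 rose, Cd274. The medians of the line compartment were larger on day 6, though this was not tested. The class I median was 2.15 in the day 6 pair and 1.20 in the day 10 pair, and the interferon median 2.96 and 0.74. In all other cells 8 of 11 class I and 8 of 21 interferon genes rose, with medians of 1.86 and 1.81.

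In other cells of the single-line libraries 11 of 11 class I genes and 18 of 21 interferon genes were called higher in line 24. Their medians were 1.46 and 1.24, where 28.4% of all genes were called higher. Of 8 checkpoint ligands 5 were called higher there, Cd274 among them. In other cells of the first mixed library 0 of 11 class I and 0 of 21 interferon genes passed for line 19 over line 15 in edgeR. Their medians were -0.21 and -0.26, in a comparison that called 8% of 13721 genes. In other cells of both mixed libraries, the effects of the 2 pairs of lines were compared. Their difference was positive and past the threshold for 9 of 11 class I genes (median 1.92), where 4.96% of genes were. It was so for 1 of 21 interferon genes, Irf1 (list median 2.18).

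The promoters of the risen genes were searched for the letters of an interferon-stimulated response element, GAAA followed by any 2 bases and GAAA again. The search covered both strands of the 250 bases before and the 50 bases after the RefSeq start. Of the 13 risen interferon genes 10 had a promoter in the RefSeq table (GRCm38.p6), and 6 of these held the motif (60.0%): Bst2, Cxcl10, Igtp, Isg15, Socs1 and Stat2. Of the class I genes 1 of 8 held it (12.5%), B2m. Of the class II genes 0 of 2 held it. It occurred in 943 of all 27025 promoters (3.49%). A second motif, TTCNNNGAA, which can overlap the first, was searched in the same way and occurred in 3 of the 10 interferon promoters (30%), 1 of 8 class I (12.5%), 0 of 2 class II and 8.47% of all promoters. A match is a description of the letters, and no match says only that they are not in this window. The promoters shown are those of Cxcl10, the interferon gene with the largest fold change, Isg15, which holds 3 matches, and B2m. Only the 250 bases before the start are shown. Capitals mark the motif.
Cxcl10, chr5:92348890-92349139, minus strand: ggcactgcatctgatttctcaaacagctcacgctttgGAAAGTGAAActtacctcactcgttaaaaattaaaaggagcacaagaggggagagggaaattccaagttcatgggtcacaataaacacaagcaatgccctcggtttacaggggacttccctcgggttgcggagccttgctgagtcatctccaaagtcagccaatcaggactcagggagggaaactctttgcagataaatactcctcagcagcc
Isg15, chr4:156200819-156201068, minus strand: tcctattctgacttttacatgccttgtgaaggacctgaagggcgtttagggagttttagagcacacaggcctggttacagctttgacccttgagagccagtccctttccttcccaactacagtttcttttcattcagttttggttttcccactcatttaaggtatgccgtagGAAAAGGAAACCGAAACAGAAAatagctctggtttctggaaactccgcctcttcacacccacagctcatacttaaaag
B2m, chr2:122147437-122147686, plus strand: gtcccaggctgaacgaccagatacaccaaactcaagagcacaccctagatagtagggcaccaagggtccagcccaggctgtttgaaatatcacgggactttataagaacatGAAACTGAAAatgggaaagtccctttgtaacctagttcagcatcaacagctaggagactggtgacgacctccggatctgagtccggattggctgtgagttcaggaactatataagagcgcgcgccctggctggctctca

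Of 19 chemokines and growth factors 10 rose and none fell, with a median of 1.5. Cxcl1, a neutrophil attractant, stood at 1955, 1958 and 2219 against 207 and 542 CPM (2.56, SE 0.291, edgeR adjusted p = 0.00201). Ccl2, a monocyte attractant, stood at 1009, 666 and 959 against 57.8 and 208 (2.90, SE 0.497). Cx3cl1, a membrane-bound chemokine, stood at 100.4, 133 and 156 against 10.9 and 20.1 (2.97, SE 0.147). For none of the 3 did the lines overlap. Il6, Cxcl2, Ccl5, Tgfb3 and Vegfc rose as well, besides Csf2 and Cxcl12 above.

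Among complement genes 6 of 10 rose (median 1.47). C1s1, a protease of the first component, stood at 17.2, 25.3 and 15.6 against 0.616 and 2.82 CPM (3.76, SE 0.318). C1ra, another, differed by 3.29, and C4b, C3 and C1qc also rose. C1qc, a macrophage gene, stood at 8.74, 10.6 and 5.83 against 3.53 and 4.56 CPM. The next list held small leucine-rich proteoglycans, many of which organise collagen fibrils, and Dmp1, which is outside that family. Of its genes 5 of 9 tested rose (median 1.58), namely Prelp, Optc, Dmp1, Ogn and Bgn. Ogn, one of them, stood at 151, 169 and 77.5 against 16.4 and 69.7 CPM (2.21, SE 0.376).

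Of 20 collagens and matrix genes 7 rose and none fell (median 0.66). In all other cells 2 of 21 rose, Postn and Col3a1, and 2 fell, Col12a1 and Tnc (median 0.12). Postn, a matricellular protein, stood at 44.4, 79.3 and 32.5 against 3.25 and 3.33 CPM (4.18, SE 0.221). Col3a1, a fibrillar collagen, stood at 234, 418 and 265 against 41.1 and 228 (1.68, SE 0.320). Of 13 matrix proteases and inhibitors 7 rose and 1 fell (median 0.54). Timp3, a metalloprotease inhibitor, stood at 45.7, 48.0 and 51.4 against 1.96 and 4.85 CPM (3.87, SE 0.268). Timp1, another, stood at 578, 564 and 626 against 959 and 764 and fell by 0.57 on the log2 scale.

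MAPK feedback genes, which growth factor signalling induces and many of which damp it, gave 7 rises and 1 fall of 14 (median 0.64). Phlda1 stood at 1021, 912 and 1288 against 471 and 397 CPM (1.17, SE 0.119). Dusp6, an ERK phosphatase, stood at 32.8, 39.6 and 46.0 against 15.2 and 19.9 (1.06, SE 0.139). Etv4, a transcription factor of the same pathway, stood at 48.5, 51.4 and 55.3 against 77.8 and 80.9 and fell by 0.66. Of 18 glycolysis and hypoxia genes tested 5 rose, namely Car9, Egln3, Hk2, Ndrg1 and Vegfa (median 0.21). In other cells of the single-line libraries 5 of 19 genes of this list were called higher and 13 lower in line 24 (median -0.32). There 28.4% of all genes were called higher and 28.3% lower. The 5 called higher there were the same genes. Car9, a hypoxia-induced carbonic anhydrase, stood at 188, 307 and 398 against 24.4 and 68.8 CPM (2.55, SE 0.181).

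Of 17 cell cycle genes 1 fell and none rose, and the median was -0.29. The one was Ccna2, a cyclin of S phase, at 115, 106 and 92.5 against 219.8 and 145 CPM (-0.68, SE 0.142, edgeR adjusted p = 0.0234). Mki67, the proliferation marker, stood at 129.9, 146 and 145 against 178 and 155 (-0.26, SE 0.128, edgeR adjusted p = 0.261). Cluster 10 of the other cells, with Ccna2 and Birc5 among its leading genes, held 3.82%, 2.31% and 1.63% of them against 35.3% and 14.3%. Cluster 12, with Top2a and Cdk1 among its leading genes, went the other way, at 10.7%, 9.49% and 11.5% against 2.63% and 2.89%. Of 17 genes of this list tested in other cells of the single-line libraries 11 were called lower in line 24, Mki67 and Ccna2 among them (median -0.43). There 28.3% of all genes were called lower. Of 15 p53 targets Btg2 and Plk2 rose (2.23 and 1.71; list median 0.17), and Cdkn1a, which encodes p21, did not pass (0.20, SE 0.109, edgeR adjusted p = 0.303). Of 15 tested in other cells of the single-line libraries 10 were called higher, Cdkn1a among them, and 1 lower (median 0.43). Of all genes 28.4% were called higher there and 28.3% lower. Of 8 S100 genes S100a16 rose, at 84.2, 122 and 85.8 against 6.5 and 15.3 CPM, and S100a3 fell. Of the melanocyte lineage list 5 of 15 genes passed the filter on low counts, and Sox9 and Sox10 rose. Sox9, a factor of neural crest and cartilage, stood at 191, 166 and 212 against 67.6 and 68.1 CPM (1.40, SE 0.113). Sox10, a neural crest factor, had 1 and 0 counts in line 18 and stood at 1.59, 1.88 and 3.62 in line 24. Neither S100a3 nor Sox10 was called with the limit of 20 on the hashtag ratio. Of the simple epithelial list 2 of 10 genes could be tested and neither passed.

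The lists of immune cell genes were also read in the line compartment. Of 8 T and NK effector genes tested Ccl4, Ccl5 and Nkg7 rose. Nkg7, a granule protein, stood at 3.04, 4.43 and 4.77 against 1.57 and 1.67 CPM. Of 5 inhibitory receptors Tigit fell, at 12.8, 16.4 and 9.80 against 61.7 and 27.9. Of 7 memory and homing genes S1pr1 and Klf2 rose and Cxcr6 fell. Of 8 inflammatory macrophage genes Cxcl10, Cxcl9, Il6 and Ccl5 rose. Of 2 alternative activation genes Maf rose, and of 11 lipid-associated macrophage genes Apoe rose while Cd9, Lgals3 and Fabp5 fell. Nkg7, Cxcr6, Maf and Fabp5 were not called with the limit of 20 on the hashtag ratio, by missing the threshold or the filter on low counts. Of the genes called in the lists above, the same held there for Psmb10, Tapbp, H2-Aa, H2-Eb1, Isg15, Bst2, Cxcl2, Vegfc, C3, C4b, Optc, Lox and Mmp14.

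**Figure D3:**
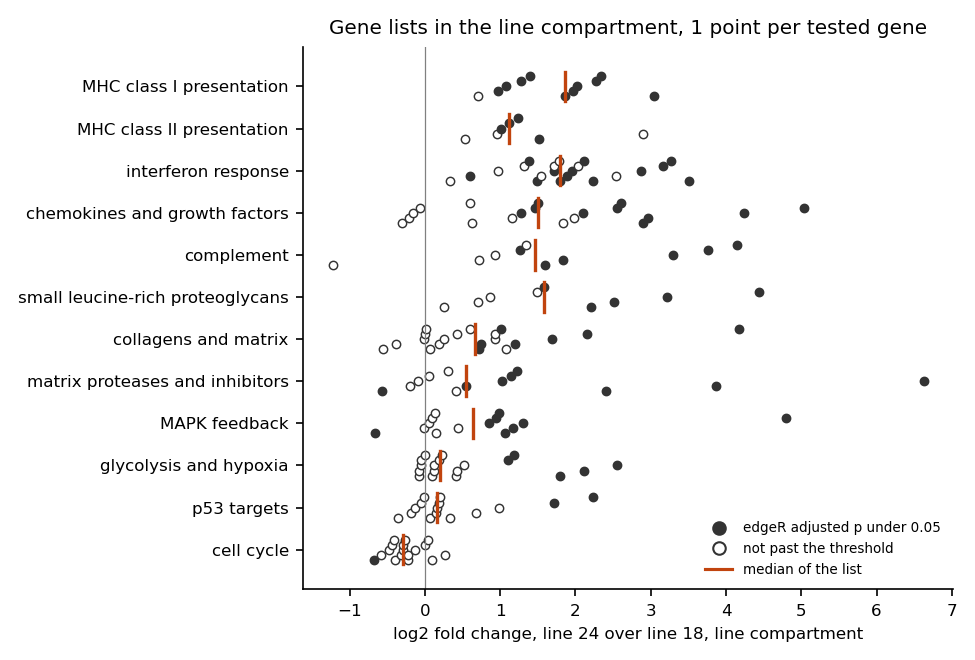
Log2 fold change of line 24 over line 18 in the line compartment for 12 gene lists, 1 point per tested gene, filled where the edgeR adjusted p was under 0.05, with each list's median as a bar. The class I and interferon medians lie at 1.87 and 1.80, and the cell cycle median at -0.29.

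The share of immune-gated cells did not separate the lines. These cells made up 34.8%, 27.4% and 37.9% of cells in line 24 and 19.8% and 38.4% in line 18. Line 24 was 15.0 percentage points above line 18 on day 6 and differed by -11.05 points on day 10. An exact two-sided permutation test that flips the signs of the 2 pairs gave p = 1, where 0.5 is the smallest it can give. Counted by named immune clusters over both gates, the shares were 40.0%, 35.7% and 39.0% against 17.5% and 33.7%. All 3 tumours of line 24 were then above both of line 18 (exact two-sided permutation p = 0.1, the smallest that 3 against 2 allows). With the limit of 20 on the hashtag ratio, immune-gated cells were 36.8%, 27.0% and 38.6% in line 24 against 32.5% and 68.3% in line 18. The differences were 4.3 points on day 6 and -41.34 on day 10, with a mean of -18.52. Each day kept its sign from the main setting. In the day 10 tumour of line 18 the limit kept 896 of 1123 immune-gated cells and 278 of 1572 line compartment cells.

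T cell-like and NK cell-like cells were more frequent in every tumour of line 24. T cell-like cells were 9.05%, 29.9% and 13.2% of immune-gated cells in line 24 (76, 268 and 178 cells) and 5.32% and 2.58% in line 18 (20 and 29 cells). Over both gates they were 9.79%, 23.0% and 14.2% of all cells against 1.79% and 1.85%. NK cell-like cells were 5.71%, 8.14% and 4.59% of immune-gated cells against 1.33% and 2.32%. The day 10 tumour of line 24 had the highest share of both kinds. Mature dendritic cell-like cells were 2.26%, 1.34% and 0.741% against 0.266% and 0.445%, and neutrophil-like cells 0.476%, 1.11% and 0.444% against 3.19% and 1.96%. The mean difference over the day pairs was -1.78 points for neutrophil-like cells, and -0.13 in cells with at least 1000 UMIs and at most 10% mitochondrial UMIs. The neutrophil-like cluster had a median of 656 UMIs, below that floor. Its shares there were 0.141%, 0% and 0% in line 24 against 0.298% and 0.0943% in line 18. Macrophage/monocyte-like cells were 45.5%, 24.6% and 46.7% against 39.4% and 54.7%. Type 2 conventional dendritic cell-like cells were 11%, 3.46% and 6.07% against 9.04% and 3.56%. Of these 6 classes the lines overlapped in the last 2.

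Osteoclast-like cells, multinucleate bone-resorbing cells in the body, lay almost wholly in line 18. They were 58 and 135 cells there (15.4% and 12% of immune-gated cells), against 1, 0 and 0 in line 24. The 0 of 897 and 0 of 1350 cells on days 10 and 16 allow shares of up to 0.334% and 0.222% at 3 counts of the total, and the exact 95% intervals reach 0.41% and 0.273%, for counting error only. With 2 pairs no class could pass: the exact two-sided sign-flip permutation p was 0.5 for 5 of the 7 classes and 1 for the other two, or 0.7 and 1 after Benjamini-Hochberg adjustment.

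Osteoclast genes fell in the summed immune-gated cells, where 126 of 11617 genes passed (1.08%), 65 higher (0.56%) and 61 lower (0.525%) in line 24. The count ran from 61 to 386 with 1 tumour left out and was 541 without the day term, 433 with RLE scaling and 1238 in the named immune clusters alone. Unnamed clusters gave 61.7%, 64.4% and 60.3% of the UMIs of these sums in line 24 and 53.4% and 47.3% in line 18. Ctsk, the collagen-degrading protease of osteoclasts, stood at 13.8, 16.4 and 13.3 against 1170 and 906 CPM (-6.08, SE 0.213, edgeR adjusted p = 0.00107). Mmp9, a gelatinase, stood at 10.4, 11.1 and 4.68 against 542 and 508 (-5.61, SE 0.167). The 5 osteoclast markers summed to 63.7, 101.8 and 121 CPM in line 24 against 2717 and 2333 in line 18. Slc9b2 and Oscar, which osteoclasts also express, stood at 0, 0.241 and 0.469 against 44.1 and 41.1 and at 0, 0.241 and 0 against 7.20 and 14.6. In summed cells, fewer cells of a type and less RNA per cell cannot be told apart.

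**Figure D4:**
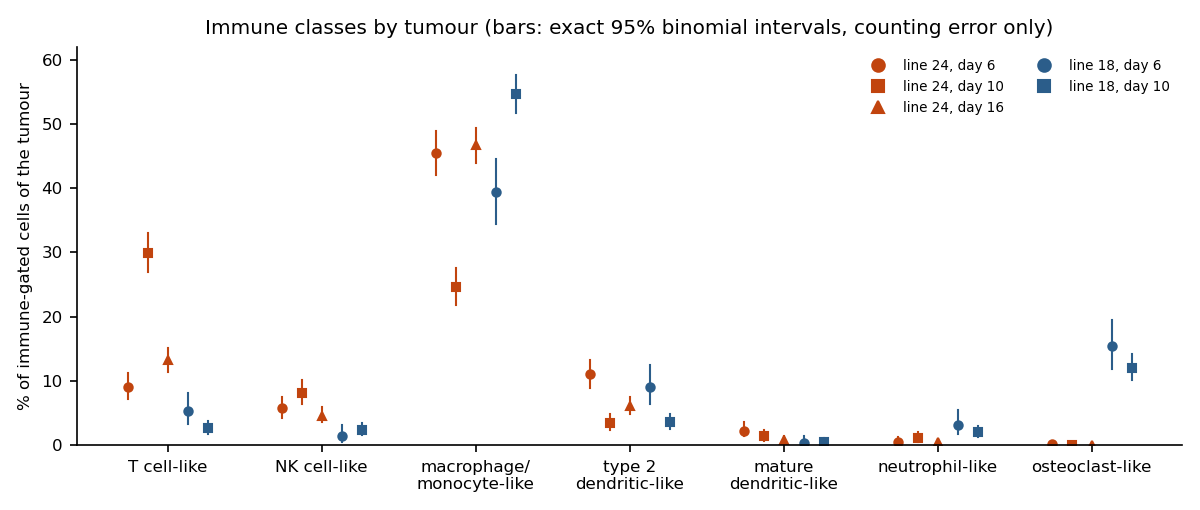
Share of each named class among the immune-gated cells of a tumour, each point 1 tumour, with exact (Clopper-Pearson) 95% binomial intervals that cover counting error only. T cell-like and NK cell-like shares are higher in all 3 line 24 tumours, and osteoclast-like cells are at 15.4% and 12% in line 18.

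Of 15 T and NK effector genes in immune-gated cells Fasl, Nkg7, Gzma and Ccl5 rose. Gzma, a granzyme, stood at 171, 192 and 100.2 against 27.0 and 38.8 CPM (2.45, SE 0.161, edgeR adjusted p = 0.00727). Nkg7 stood at 139, 264 and 218 against 29.2 and 42.5 (2.46, SE 0.162). T-cell markers in these sums stood at 192, 564 and 388 against 67.0 and 54.4 CPM, above line 18 in all 3 tumours as well. Mcpt4 and Cpa3, mast cell proteases, fell, with Mcpt4 at 1.01, 0.722 and 8.59 against 23.8 and 146 CPM (-6.68, SE 0.507). Without line 18 day 10, in a fit with no day term, both calls were lost, as were those of Oscar and of the 5 largest rises. Without the day term alone, on all 5 tumours, Trbv16, Apol7c and Trbv13-1 lost theirs. With the limit of 20 on the hashtag ratio the lines overlapped for Mcpt4, at 0.644, 1.43 and 15.6 against 1.52 and 110.2 CPM, and Cpa3 was not tested. The 5 mast cell and basophil markers summed to 5.39, 2.41 and 11.1 against 33.7 and 174 CPM in immune-gated cells. In the named immune clusters they summed to 4.64, 3.13 and 4.18 against 3.92 and 4.20 CPM. The 5 largest rises were Trbv16, Trbv13-1, Apol7c, Gm8369 and Cox4i2. Trbv16, a T-cell receptor segment, stood at 3.37, 15.4 and 3.28 against 0 and 0.153.

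Of the other lists in immune-gated cells, 0 of 11 class I, 0 of 9 class II and 1 of 21 interferon genes (Iigp1) passed in edgeR, with medians of 0.55, 0.70 and 0.73. All of them had positive differences, and 1902 of all 11617 genes (16.4%) had an unadjusted p under 0.05. Pf4, Trem2, Lpl, Mrc1 and Mmp14 fell, and Ccr7, Pdcd1lg2, Btg2, Serpine2, Lum, Bgn, Ogn and Mmp3 rose. Fibroblast markers in these sums stood at 296, 316 and 287 against 130.0 and 163 CPM, and their part in the rise of the matrix genes was not tested.

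Within macrophage/monocyte-like cells (382, 221 and 630 cells against 148 and 614) 332 of 6501 genes passed (5.11%), 239 higher (3.68%) and 93 lower (1.43%) in line 24. DESeq2 called 25 genes, and leaving out the day 10 tumour of line 18, without the day term, left 0 in edgeR (596 at an unadjusted p under 0.05). Different clusters held most of the class in the tumours. Cluster 3, led by Pf4, Ms4a7 and Mrc1, held 9.95%, 8.6% and 2.86% of the class in line 24 and 56.1% and 57.0% in line 18. Cluster 6, led by Apoe and Ccl8, held 7.85%, 49.8% and 24.9% against 2.03% and 1.95%. Cluster 7, led by Chil3 and Vcan, held 55.5%, 9.5% and 17.0% against 17.6% and 22.0%. Cluster 10, led by Ly6i and class II genes, held 26.7%, 32.1% and 55.2% against 24.3% and 19.1%. Cluster 3 was the largest in both tumours of line 18, and clusters 7, 6 and 10 were the largest on days 6, 10 and 16 in line 24.

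Class II genes rose in these cells. Of 8 tested 7 rose (median 1.25, against 0.006 over all genes), where 3.68% of all genes rose. H2-Ab1 differed by 1.24 (SE 0.366, edgeR adjusted p = 0.0201), with the day 6 tumour of line 24 nearest to line 18. H2-DMa, which helps to load class II molecules, stood at 465, 639 and 536 against 176 and 230.5 CPM (1.56, SE 0.272). Ciita, the master regulator of class II genes, stood at 44.2, 31.0 and 40.2 against 14.9 and 12 (1.55, SE 0.422). Of 11 inflammatory genes 7 rose (median 1.54). Cxcl9 stood at 1556, 484 and 1041 against 50.8 and 277 CPM (2.60, SE 0.322, edgeR adjusted p = 1.17e-12). Cd40, the receptor of a T-cell signal, stood at 257, 63.6 and 79.7 against 35.8 and 31.6 (1.91, SE 0.299). Il12b, a subunit of interleukin 12 and a leading gene of the mature dendritic cell-like cluster, had 0 counts in line 18 and stood at 18.0, 21.2 and 4.39 in line 24. Mature dendritic cell markers summed to 57.3, 71.7 and 61.5 against 8.96 and 35.1 CPM in these cells, and their part in these rises was not tested.

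Of 21 interferon genes in macrophage/monocyte-like cells 9 rose (median 0.83). Their median was 1.82 in the day 6 pair, where all 21 were positive, and 0.33 in the day 10 pair, where 15 were. Gbp2 differed by 3.15 on day 6 and 0.31 on day 10, Isg15 by 2.09 and 0.26, and Rsad2 by 2.49 and -0.46. The medians of the inflammatory list were 2.84 and 0.79, and those of class II genes went the other way, at 0.51 and 1.94. Of 11 class I genes in these cells none passed in edgeR (median 0.50). Of 6 checkpoint ligands Cd86 and Cd274 rose, with Cd86, a costimulatory ligand, at 199.6, 191 and 168 against 114 and 126 CPM (0.82, SE 0.267).

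Pf4 and Mrc1, which lead cluster 3, fell. Pf4, a chemokine, stood at 255, 774 and 338 against 1400 and 1410 CPM (-1.51, SE 0.289, edgeR adjusted p = 2.59e-05). Mrc1, the mannose receptor, stood at 90.0, 292 and 119 against 272 and 464 (-0.94, SE 0.264), and there the day 10 tumour of line 24 lay within the range of line 18. Of 12 lipid-associated genes Apoe and Mmp12 rose and Fabp5, Trem2 and Plin2 fell. Apoe, a lipid carrier, stood at 1633, 5498 and 3518 against 1057 and 1476 CPM (1.40, SE 0.349). Fabp5, a fatty acid binding protein, stood at 221, 378 and 464 against 857 and 1010 (-1.55, SE 0.274). Of 14 cell cycle genes Ccnb1, Birc5, Cdk1 and Top2a fell, and all 14 were negative (median -0.76). Birc5, which encodes survivin, stood at 26.2, 55.4 and 38.9 against 104 and 107 CPM (-1.23, SE 0.313).

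Among the 5 largest rises in these cells, Tlr12, a Toll-like receptor, had 0 counts in line 18 and stood at 13.1, 37.5 and 28.9 CPM in line 24. Spon1, a secreted matrix protein, stood at 29.4, 40.8 and 35.8 against 2.99 and 2.5 (3.97, SE 0.590). The others were Il12b, Lilra5 and Cox4i2. Among the falls, Lipg, a lipase, stood at 1.64, 0 and 1.88 against 80.6 and 71.2, and Pdpn, podoplanin, at 8.18, 11.4 and 18.2 against 116 and 109.7 (-3.38, SE 0.395). The other falls were Cd207, Cd300e and Ifitm1. Ifitm1 overlapped between lines, at 54.0, 31.0 and 340.3 against 328 and 226 CPM. Without the day term, on all 5 tumours, Il12b and Ifitm1 lost their calls, and DESeq2 lost that of Spon1. Gzma, Gzmb, Ccl5 and Nkg7 also rose, with Gzma at 31.1, 48.9 and 32.6 against 29.9 and 5.51. T-cell markers in the macrophage sums stood at 90.0, 218 and 107 against 107.5 and 40.6 CPM and NK-cell markers at 50.7, 39.1 and 67.8 against 29.9 and 23.6, and the part of RNA from such cells was not tested.

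**Figure D5:**
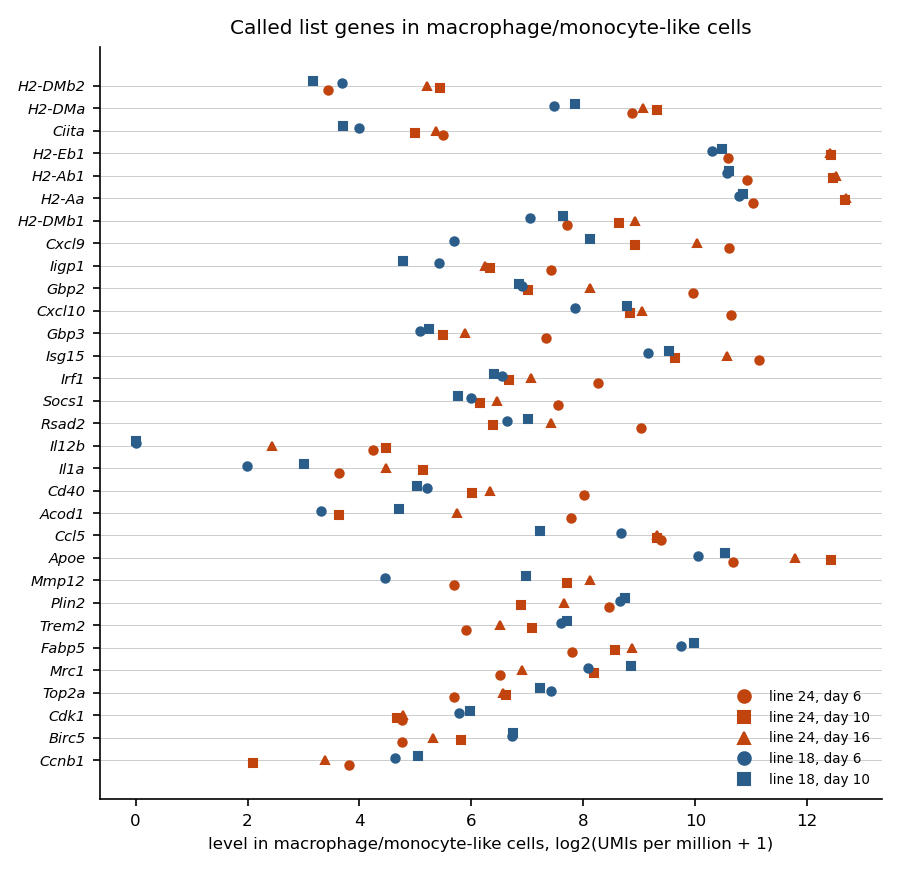
Genes past the threshold in macrophage/monocyte-like cells, each point 1 tumour, on a log2 axis of CPM plus 1. The genes are from the class II, interferon, inflammatory, lipid-associated, alternative activation and cell cycle lists. Most class II and inflammatory genes lie to the right in line 24 (H2-Ab1 at 1935 to 5880 against 1523 and 1554), and the called cell cycle genes to the left.

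T cell-like cells could be compared on 20 and 29 cells of line 18, whose sums hold few counts. The class joined clusters 8 and 2 in unlike proportions. Cluster 8, with Cd3d, Cd8b1 and Cd8a among its leading genes, held 52, 206 and 150 cells in line 24 and 10 and 12 in line 18. Cluster 2, led by Il2ra and Ctla4, held 24, 62 and 28 against 10 and 17. The part of this mix in the differences below was not tested. In edgeR 76 of 2798 genes passed (2.72%), 21 higher (0.751%) and 55 lower (1.97%) in line 24, and in DESeq2 1 did. With 1 tumour left out and no day term 3 to 124 passed. Of 13 interferon genes Rsad2, Socs1, Ifit1, Cxcl10 and Bst2 rose (median 1.52). With T cell-like cells of both gates 6 of 11 named genes lost their calls, among them Rsad2, Socs1, Pkp3 and Csf1. Bst2, an interferon-induced membrane protein, stood at 702, 572 and 409 against 244 and 239 CPM (1.52, SE 0.425, edgeR adjusted p = 0.0185). Rsad2, Pkp3 and Csf1, 3 of the 5 largest rises, had 0 counts in line 18. Without the day term alone, on all 5 tumours, Rsad2, Pkp3 and Ifit1 lost their calls. Of 8 effector genes Ccl5 and Nkg7 rose, with Ccl5 at 2244, 2189 and 2753 against 1243 and 423. Of 9 cell cycle genes Mki67, Top2a and Ccnb2 fell, with Mki67 at 314, 133 and 312 against 414 and 1196 (-1.84, SE 0.402). None of 3 inhibitory receptors passed in edgeR. Ifitm1, Basp1, Plk1 and St7l were among the 5 largest falls. Macrophage markers in these sums stood at 1827, 1738 and 1328 against 828.9 and 2227 CPM, and their part in these differences was not tested.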

How the data were processed

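The 6 libraries are 10x matrices of UMI counts per gene and hashtag, deposited by the authors as whole numbers with no normalization. The submitters' processing notes name Cell Ranger 6.0.0 and mm10; the settings behind the counts are not given in the labels. A sheet deposited by the authors ties each hashtag to a line and a day. It gives 2 day pairs here, where 3 had been planned for, so the paired fit has 1 residual degree of freedom.

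Counts were summed per hashtag and compartment and tested with edgeR 4.0.16 (R 4.3.3; filterByExpr, TMM, quasi-likelihood, day as a covariate), with Benjamini-Hochberg adjustment over all genes tested and a threshold of 0.05. The day 16 tumour of line 24 is absorbed by its day term: it does not enter the paired fold change. The day term was kept because the sheet gives both lines the same days; deviations of the 2 lines correlated at 0.131 in the line compartment, 0.091 in other cells and 0.033 in immune-gated cells. SE is that of the log2 fold change. CPM are raw sums scaled to 1000000.

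Cells were clustered with scanpy 1.11.5 (30 components, 15 neighbours, Leiden resolution 1.0), the immune and other gates apart, and named where at least 3 markers of 1 type were raised. Barcodes with 2 strong hashtags were left out by the hashtag rule (4197 hashtag doublets). Scrublet, run on all 29847 passing barcodes of the library before that rule, marked 14.001%. An alternative left out the 621 highest-scoring cells among those the rule kept, over all hashtags of the library. That is the number of doublets expected within tumours.

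Named genes are Mif, the 10 largest called changes each way in the line compartment and in other cells, and the 5 largest in immune cells, with a mean log2 CPM of at least 2 and the same sign in both day pairs. Members of 23 lists are given by counts and examples, with the more abundant gene ID where a symbol has several. Members and lists were chosen with earlier results of these data known. The code was tested on simulated data. DESeq2 1.42.0, scaling, filters, gates, hashtag limits and left-out tumours were tried as alternatives.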

Additional observations from a re-analysis of the deposited data

Results flagged for a closer look

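For 20 of 31 named genes tested the effect of line 24 over line 18 differed between other and immune-gated cells, by the edgeR test of the difference itself (adjusted p under 0.05). Of all 13019 genes tested 7.6% passed. The 31 were chosen as the largest changes in the line compartment or in immune-gated cells, besides Mif, so their share is a description. The values are the log2 effect in other cells minus that in immune-gated cells. Mif gave -0.67. Of the genes that rose in the line compartment, Csf2 gave 5.67, Aqp4 3.95, Ralgps2 3.05, Il17rd 2.57 and Sparcl1 1.99. Of those that fell, Gm47223 gave -2.31, Gad2 -2.22, Tspan6 -2.17, Srpx2 -2.01, Tex13b -1.72, Tfpi -1.59 and Slc2a5 -1.57. Of the genes named in immune-gated cells, the osteoclast genes Slc9b2, Oscar and Ctsk gave 7.05, 6.33 and 5.68, the mast cell genes Cpa3 and Mcpt4 gave 6.33 and 5.29, and Apol7c and Cox4i2 gave -6.62 and -3.28. The mast cell markers separated the lines in immune-gated cells (5.39, 2.41 and 11.1 CPM against 33.7 and 174). They did not in the named immune clusters (4.64, 3.13 and 4.18 CPM against 3.92 and 4.20). Between the line compartment and the named immune clusters, Mif, Csf2, Aqp4, Ralgps2, Sparcl1, Tspan6, Slc9b2 and Ctsk passed of the genes above. The rest missed the threshold, and Cpa3 was not tested. Tex13b gave 0.12 there and Mcpt4 -0.25 (edgeR adjusted p = 0.961 and 0.935).

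For 15 of 21 named genes tested the effect of line 24 over line 18 differed from that of line 19 over line 15, each in 1 mixed library, by the edgeR test of the difference (adjusted p under 0.05). Of all 13721 genes tested 8.67% passed, and the 21 were chosen for their line 24 over line 18 change, besides Mif. Mif gave 1.41, line 24 showing the smaller fall, and 1.22 with the hashtag ratio of at least 20 in both libraries. Ralgps2 gave 5.42, Csf2 5.07, Mmp3 4.79, Sparcl1 4.16, Prelp 3.79, Ppp1r14a 3.66, Il17rd 3.50 and Cxcl12 2.55. Cnfn gave -3.91, Tmem37 -3.06, Gad2 -2.44, Slc2a5 -2.20, Tex13b -2.01 and Tfpi -1.11. The library and the pair of lines cannot be told apart in these differences.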

How the results depend on the processing

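Every value here is a count of genes called, unless it is named as a difference, and the cause of a change was not tested. Leaving out the low-count filter gave 411 calls in other cells, 2068 in the line compartment, 594 in immune-gated cells, 19 in T cell-like cells, 1496 for other against immune cells and 1838 for the 2 pairs of lines. DESeq2 called 678 in other cells, 509 in the line compartment, 25 in macrophage/monocyte-like cells and 1 in T cell-like cells. The stricter cell filter gave 754 in other, 444 in immune-gated and 120 in macrophage/monocyte-like cells. In immune-gated cells RLE scaling gave 433, leaving out likely doublets 382 and a gate of 4 UMIs 245. Among alternatives chosen after seeing the data, the hashtag ratio of at least 20 gave 341 in other and 146 in macrophage/monocyte-like cells, cells of both gates 132 in the latter, named immune clusters alone 1238, and the day 16 tumour of line 18 from the first mixed library 394 in immune-gated cells. That ratio gave 444 for other against immune cells and 412 for the 2 pairs of lines.

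Without the replicate block, which pairs the tumours by day, 1581 genes were called in other cells, 1481 in the line compartment, 541 in immune-gated, 134 in macrophage/monocyte-like and 81 in T cell-like cells.

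Leaving out 1 tumour in turn gave 641 (without line 18 day 6) to 2712 (without line 18 day 10) in other cells, with 717 without line 24 day 16. It gave 569 (without line 24 day 16) to 3021 (without line 18 day 10) in the line compartment and 61 (without line 18 day 10) to 386 (without line 24 day 6) in immune-gated cells. In macrophage/monocyte-like cells it gave 0 to 403, with 27 without line 24 day 16 and 23 without line 18 day 6, and in T cell-like cells 3 to 124. The comparison of the 2 pairs of lines gave 176 without day 6, 687 without day 10 and 1439 without day 16. Leaving out a single tumour used no day term, since 1 pair leaves no test.

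The Mif difference in immune-gated cells turned positive without line 18 day 6 (0.007; range from -0.138) and with the day 16 tumour of line 18 (0.117). The mean day-pair difference in immune share, 1.97 percentage points, became -6.28 with a gate of 4 UMIs, -0.02 with cells thinned, -2.02 with the stricter hashtag call and -18.52 with the ratio of 20, and ran from -11.05 to 15.0 by day. By day the macrophage/monocyte-like difference ran from -30.04 to 6.11 and that of type 2 conventional dendritic cell-like cells from -0.11 to 1.91. The neutrophil-like difference was -0.13 with the stricter cell filter, whose floor of 1000 UMIs lies above that cluster's median of 656. The osteoclast-like difference was -10.31 at a Leiden resolution of 0.5. Of the alternatives for single named genes, 967 of those with a test kept direction and call, 163 kept the direction and lost the call and 2 reversed, and 127 on 1 pair with no test kept the direction. T cell-like cells were not refitted under the stricter cell filter, the stricter hashtag call or the ratio of 20, which leave under 20 cells in a line 18 tumour.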
